A study of Mus musculus with 6 samples.

Results

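The genes described here are 3 Janus kinases, Jak1, Jak2 and Jak3, and 6 signal transducers and activators of transcription, Stat2, Stat3, Stat4, Stat5a, Stat5b and Stat6. Their members are the chromatin accessibility peaks that overlap the body of one of these genes, or that lie within 50 kb with it as the nearest protein-coding gene. This gave 135 of the 182166 consensus peaks in the deposited table, and 131 of them had a mean of at least 10 normalized reads and were tested, out of 170733 tested peaks. The rule assigns peaks to these genes by position and uses no measured value.

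Accessibility was measured by ATAC-seq, an assay in which a transposase cuts and tags exposed DNA, in granulocyte-monocyte progenitors (GMPs) isolated from bone marrow by flow cytometry. The mice were untreated and of the C57BL/6 strain. In the GFI1-KD mice, human GFI1 was expressed at 10 to 20% in place of mouse Gfi1, per the series' design text. In the GFI1-KI mice, human GFI1 replaced the mouse gene, so human GFI1 stands in both genotypes. Each genotype had 3 libraries, called KD1 to KD3 and KI1 to KI3, and the labels do not say whether these were separate animals, pools or repeats. The p-values therefore measure only the spread between these libraries. The table names the second genotype's columns WT, which were read as GFI1-KI because the series' title contrasts wild-type with low GFI1.

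Janus kinases are tyrosine kinases bound to the inner part of cytokine receptors. When a cytokine brings receptor chains together, the kinases phosphorylate the receptor and then the STAT proteins, which pair up, enter the nucleus and bind DNA at palindromic sites. In myeloid progenitors JAK2 and STAT5 act downstream of the receptors for interleukin 3 and granulocyte-macrophage colony-stimulating factor, and STAT3 downstream of the receptor for granulocyte colony-stimulating factor. GFI1 is a zinc-finger repressor that binds DNA at sites with an AATC core and recruits histone-modifying enzymes.

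The 250 bases before each annotated start were read from RefSeq (GRCm38.p6) for all 9 genes, 12 windows in all, because Stat4, Stat5a and Stat5b have a pair of starts each. Those shown belong to the gene with the increased peaks (Jak2) and to the 3 genes whose windows held the GFI1 core motif AATCAC. They are printed 5′ to 3′ in the direction of transcription, and capitals mark matches, on either strand, to AATCAC or to the STAT6 form of the STAT palindrome, whose spacer is 1 base longer.
Jak2, chr19:29251553-29251802, plus strand: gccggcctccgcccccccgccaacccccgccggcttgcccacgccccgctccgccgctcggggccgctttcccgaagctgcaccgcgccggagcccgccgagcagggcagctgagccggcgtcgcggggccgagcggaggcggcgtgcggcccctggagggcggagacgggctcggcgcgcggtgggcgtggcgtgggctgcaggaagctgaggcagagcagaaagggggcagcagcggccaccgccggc
Stat2, chr10:128270248-128270497, plus strand: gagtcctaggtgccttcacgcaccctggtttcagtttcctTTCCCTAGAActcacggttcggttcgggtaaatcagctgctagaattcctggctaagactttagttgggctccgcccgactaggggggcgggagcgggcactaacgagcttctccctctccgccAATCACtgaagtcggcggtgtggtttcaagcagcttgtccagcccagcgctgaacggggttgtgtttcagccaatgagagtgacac
Stat4, first start, chr1:51986898-51987147, plus strand: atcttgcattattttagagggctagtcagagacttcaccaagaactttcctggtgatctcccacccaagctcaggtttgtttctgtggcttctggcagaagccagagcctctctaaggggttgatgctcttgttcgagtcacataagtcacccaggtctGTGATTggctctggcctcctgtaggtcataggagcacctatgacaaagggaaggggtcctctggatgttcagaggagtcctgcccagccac
Stat5b, inner start, chr11:100822571-100822820, minus strand: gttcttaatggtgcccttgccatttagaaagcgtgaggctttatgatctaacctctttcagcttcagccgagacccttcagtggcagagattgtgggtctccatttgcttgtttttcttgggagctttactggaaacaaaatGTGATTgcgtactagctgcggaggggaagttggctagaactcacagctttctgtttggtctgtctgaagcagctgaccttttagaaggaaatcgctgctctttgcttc
The Jak2 window was 80.8% G and C, against a median of 52.4% over the 32851 windows of the reference, and held no match to any motif searched. The STAT palindrome TTCNNNGAA was in 0 of the 12 windows and in 7.02% of all windows. Its STAT6 form was in the Stat2 window alone, at 5.85% of all windows. The GFI1 core AATCAC was in 4 windows of 3 genes (Stat2, both starts of Stat4 and the inner start of Stat5b), against 9.14% of all windows. The ETS motif GGAAGT was in 4 windows (19.7% of all), the RUNX motif TGTGGT in 2 (14%), the CRE TGACGTCA in the Jak1 window (1.55%), and the C/EBP motif TTGCNNAA and the AP-1 motif TGANTCA in 0 (9.56% and 6.75%). Both strands were searched and matches of different motifs could overlap. A match is a run of letters and not a shown binding site, and a window without one says nothing about the factor.

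Of the 131 tested peaks of the JAK and STAT genes, 8 differed between GFI1-KD and GFI1-KI. Both peaks that rose in GFI1-KD belong to Jak2. The 6 that fell belong to Jak1 and Stat5a, with 2 each, and to Stat3 and Stat5b, with 1 each. No peak of Jak3, Stat2, Stat4 or Stat6 passed. The share called, 6.11%, lay below the 10.5% called among all tested peaks, where 4.99% were higher and 5.48% lower in GFI1-KD. The test was limma's moderated test on log2(normalized reads + 1), with p-values adjusted by the Benjamini-Hochberg method over all tested peaks at 0.05, and every log2 fold change below is GFI1-KD over GFI1-KI on that scale, with its standard error (SE). The edgeR quasi-likelihood test on the recovered reads called 10 of the 131 (12.6% of all tested peaks). DESeq2 called 3 and gave no adjusted p for 12 of the 131. Over all peaks it called 7.3% of the 147538 to which it gave an adjusted p. Which peaks were called also depended on single libraries: the count was 14 without KD1 (9.97% of all tested peaks), 4 without KD2 (7.28%), 5 without KD3 (6.33%), 13 without KI1 (13%), 3 without KI2 (4.24%) and 3 without KI3 (4.1%).

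Over all 131 tested peaks, the 8 called ones included, the values leaned lower in GFI1-KD. An unadjusted p under 0.05 was reached by 42 peaks, 12 higher and 30 lower, against 25.5% of all tested peaks. All 3 GFI1-KD values lay above all 3 GFI1-KI values in 10 peaks (11.4% of all tested peaks) and below them in 34 (17.4% of all). The median log2 fold change was -0.16 for the JAK and STAT peaks and -0.05 for all tested peaks. With median-of-ratios scaling these medians were -0.11 and -0.01, and 17 peaks lay above (14.6% of all) and 27 below (14% of all). Equal read totals gave medians of -0.12 and -0.01.

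By position, the medians lay furthest from those of all genes inside the gene bodies, although the difference between positions was not tested. Of 91 tested peaks inside a gene and away from its start, 68 had a fold change below 0 and the median was -0.23, against -0.04 for the 88684 such peaks of all genes. With median-of-ratios scaling 65 of the 91 were below 0, with medians of -0.19 and 0.00. By gene, without that scaling, the medians were -0.25 for Jak1 (33 peaks), -0.32 for Stat4 (17) and -0.22 for Stat3 (10). Jak2 (7) gave -0.39, Stat5a (4) -0.66 and Jak3 (1) -0.77. Stat5b (14) gave -0.04, Stat2 (2) -0.08 and Stat6 (3) -0.01. The 30 peaks outside the genes had a median of 0.05, with 12 below 0, against -0.04 for the 49659 such peaks of all genes. Position and level went together in part, as the peaks at gene starts had a median of 685 normalized reads. Those inside the genes had 48.1 and those outside them 58.4. For all tested peaks the median SE of the log2 fold change was 0.27 at a mean of 10 to 50 normalized reads, which held 61 of the JAK and STAT peaks, and 0.10 above 200.

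**Figure D1:**
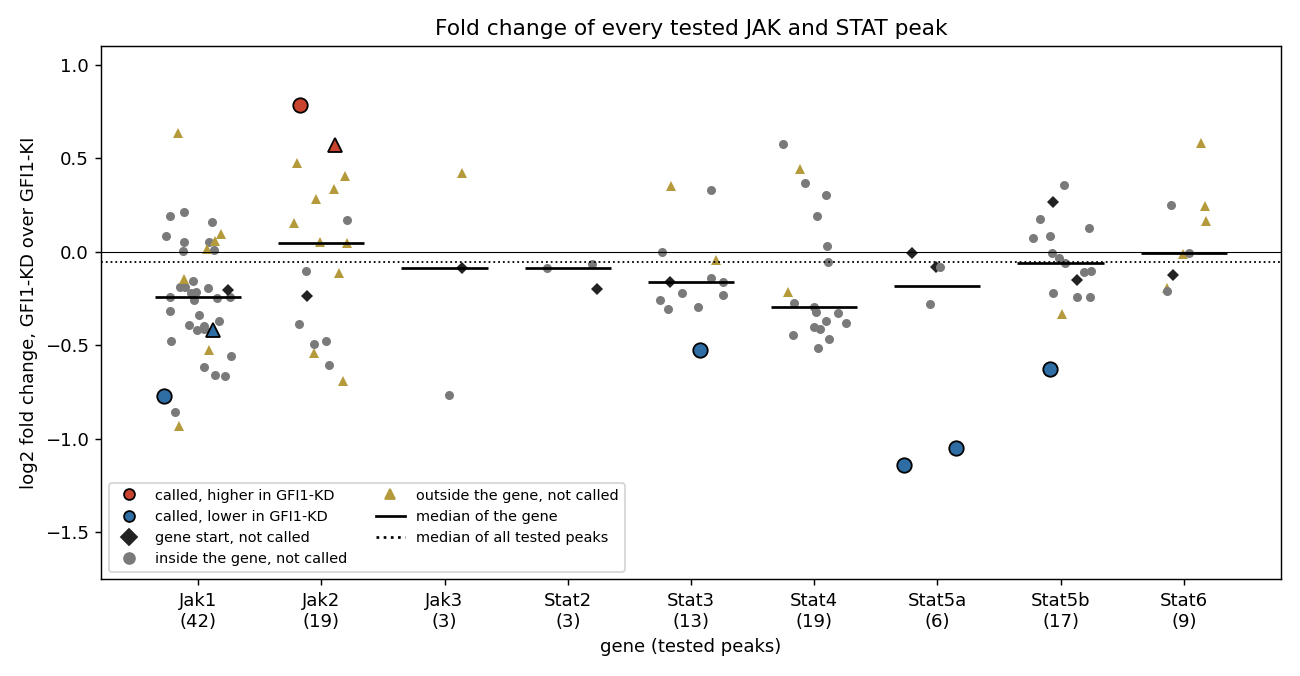
Log2 fold change (GFI1-KD over GFI1-KI, vertical axis) of each of the 131 tested peaks, grouped by gene with the number of tested peaks in brackets; symbols mark the position of a peak and filled colours the 8 called peaks. Both increased peaks belong to Jak2, the largest decreases to Stat5a, and the medians of Jak1 and Stat4 lie below the median of all tested peaks.

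Jak2, the kinase of the erythropoietin and interleukin 3 receptors, had 19 tested peaks along chromosome 19 (gene body 29251803 to 29313095, mm10). The stronger of its called peaks lies 9.8 kb upstream, at 29241484 to 29242035. It held 523.2, 448.0 and 460.1 normalized reads in KD1, KD2 and KD3, against 369.3, 301.5 and 294.5 in KI1, KI2 and KI3. The lowest GFI1-KD library was above the highest GFI1-KI library, and the log2 fold change was 0.57 ± 0.10 (SE, limma adjusted p = 0.00118). The other lies inside the gene, 19.5 kb past the start, at 29271132 to 29271567. It held 127.3, 87.6 and 97.6 normalized reads in the GFI1-KD libraries and 63.1, 65.7 and 50.6 in the GFI1-KI libraries, a log2 fold change of 0.78 ± 0.18 (limma adjusted p = 0.00634). Here too the genotypes did not overlap. Both peaks were called under each of the 17 alternative settings, which include edgeR, DESeq2 and leaving out each library, with adjusted p of at most 0.0126 and 0.0491.

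No other Jak2 peak passed the test. The start peak, which covers the GC-rich window printed above, held 1089, 846.6 and 1043 normalized reads in GFI1-KD and 1153, 1127 and 1212 in GFI1-KI. All GFI1-KD values were the lower ones, and the log2 fold change of -0.24 ± 0.08 missed the threshold (limma adjusted p = 0.0550). That peak was called with a replicate block (0.0239), robust variance estimation (0.0492), a chromosome Y term (0.0485) or without KD1 (0.0120). A neighbour of the upstream peak, 12 kb from the gene and chosen after its values were seen, held 92.6 ± 3.46 normalized reads in GFI1-KD against 66.5 ± 4.95 in GFI1-KI (SD, n = 3 each). Its log2 fold change of 0.47 ± 0.16 was called by edgeR (adjusted p = 0.0256) but not by limma (adjusted p = 0.0569). Over the 19 peaks, 10 fold changes were above 0 and 9 below, from -0.69 to 0.78. Of the 11 peaks outside the gene 8 were above 0, and of the 7 inside it and away from the start 5 were below 0.

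**Figure D2:**
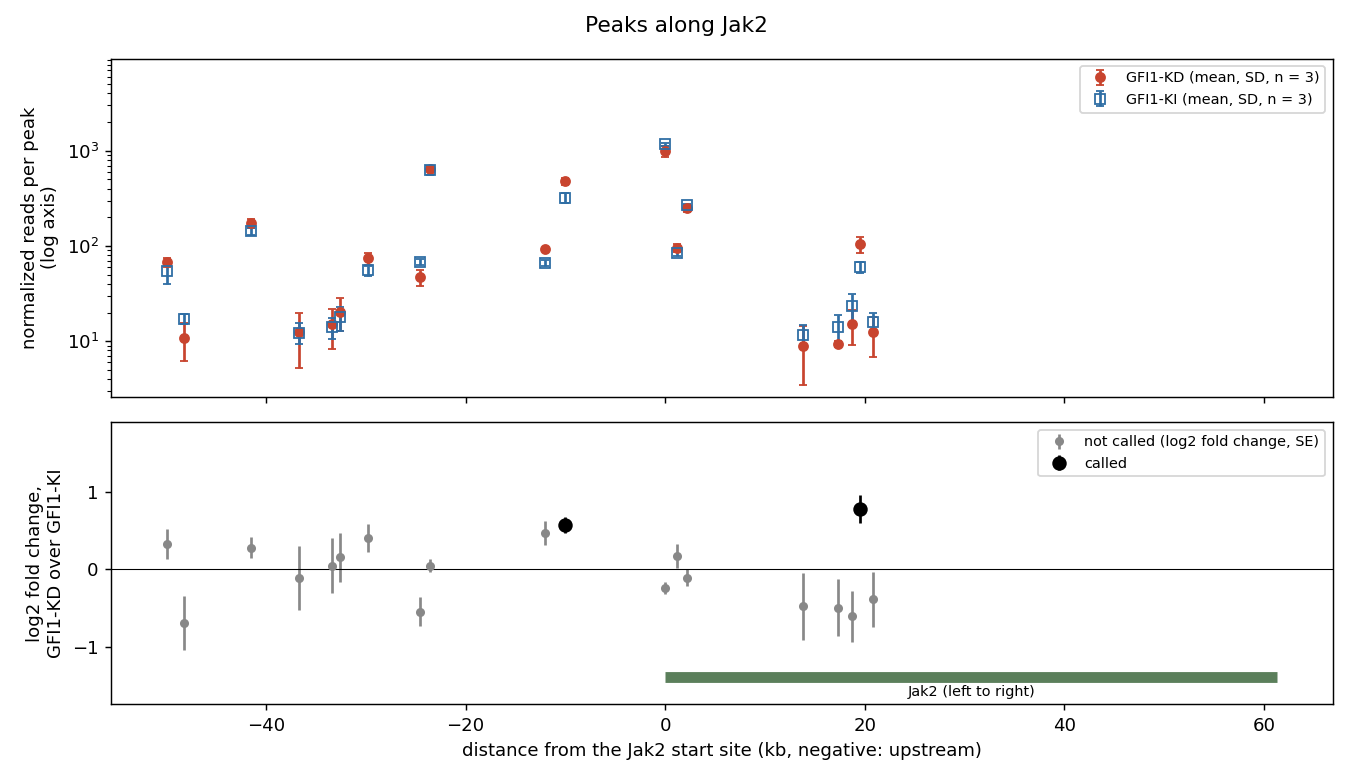
Normalized reads per peak (upper panel, log axis, mean and SD of 3 libraries per genotype) and log2 fold change with its SE (lower panel) against the distance in kb from the Jak2 start, with the gene body as a bar. The called peaks at 9.8 kb upstream and 19.5 kb inside the gene lie on either side of a start peak with a fold change of -0.24.

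Jak1, the kinase shared by interferon, gp130 and common gamma chain receptors, had the most peaks, 42 tested along chromosome 4 (gene body 101151974 to 101265282). At 101240480 to 101240758, inside the gene and 24.6 kb from its start, GFI1-KD libraries held 26.7, 17.3 and 25.5 normalized reads and GFI1-KI libraries 34.9, 40.3 and 43.8. The genotypes did not overlap, and the peak fell by 0.77 on the log2 scale (SE 0.23, limma adjusted p = 0.0382). At 101298375 to 101298960, 33.1 kb outside the gene, values were 153.0, 119.7 and 164.1 in GFI1-KD against 195.9, 202.5 and 181.2 in GFI1-KI. This peak fell by 0.42 (SE 0.13, limma adjusted p = 0.0491). Neither call was firm. DESeq2 gave adjusted p = 0.190 and 0.140. Leaving out KD2 (0.145 and 0.204), KI2 (0.134 and 0.195) or KI3 (0.177 and 0.100) lost both calls, leaving out KD3 lost the first (0.0590), and leaving out KI1 (0.0718) or median-of-ratios scaling (0.0537) lost the second.

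Of the 42 Jak1 fold changes, those of the called peaks included, 30 were below 0, with a median of -0.24. All GFI1-KD values lay below all GFI1-KI values in 15 of the 42 peaks (35.7%, against 17.4% of all tested peaks) and above them in 2 (4.76%, against 11.4%). With median-of-ratios scaling 12 lay below (28.6%, against 14% of all) and 2 above (4.76%, against 14.6%). The start peak, at 101264756 to 101265533, held 818.5, 786.2 and 819.4 normalized reads in GFI1-KD and 988.6, 894.9 and 914.5 in GFI1-KI. Its log2 fold change of -0.21 ± 0.07 did not pass (limma adjusted p = 0.0574), although the genotypes did not overlap, and it passed with a replicate block (0.0449) or when only peaks with a mean of at least 50 were tested (0.0465).

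Jak3, the lymphoid kinase that pairs with the common gamma chain, had 3 peaks on chromosome 8 and limma called 0 of them, as did edgeR and DESeq2, with 2 at an unadjusted p under 0.05. Its start peak held 315.6, 370.3 and 341.5 normalized reads in GFI1-KD and 358.0, 372.5 and 360.2 in GFI1-KI, and these overlapped (log2 fold change -0.09 ± 0.10, limma adjusted p = 0.606). The peak with the smallest p, at 71690178 to 71690347 near the end of Jak3, also lies in Insl3, so its reads cannot be given to one gene. It held 16.0, 12.3 and 12.2 normalized reads in GFI1-KD and 13.5, 26.3 and 36.2 in GFI1-KI, with KI1 inside the GFI1-KD range. Its log2 fold change was -0.77 ± 0.33 (limma adjusted p = 0.140), and without KI1 the adjusted p was 0.0188.

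The 4 called peaks of the STAT genes all lie on chromosome 11, in the neighbouring genes Stat5b, Stat5a and Stat3, and all 4 were lower in GFI1-KD. Stat5a and Stat5b encode near-identical factors that carry signals from the interleukin 3, granulocyte-macrophage and erythropoietin receptors, and their gene bodies are divergent and adjoining (Stat5b 100780731 to 100859004, Stat5a 100859351 to 100885169). Stat5a had 6 tested peaks, and every one had a fold change below 0, from -1.14 to 0.00; with median-of-ratios scaling 5 of the 6 were below 0. The paralogs share stretches of sequence, and how reads that fit both were handled was not given in the sources used here.

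The peak 5.3 kb past a Stat5a start, at 100865636 to 100865949, held 50.3, 35.8 and 34.4 normalized reads in GFI1-KD and 58.5, 87.6 and 111.0 in GFI1-KI. The GFI1-KI libraries spread widely but all lay above the GFI1-KD libraries, and the peak fell by 1.05 on the log2 scale (SE 0.22, limma adjusted p = 0.00362). It was called under each of the 17 alternatives, with adjusted p of at most 0.0443. The peak 19.4 kb past the start, at 100879767 to 100880042, was weak, with 13, 6 and 10 reads in GFI1-KD and 13, 36 and 41 reads in GFI1-KI before scaling. Scaled, these were 13.9, 7.4 and 11.1 against 14.6, 31.6 and 31.0 normalized reads, so that KI1 sat just above KD1. The peak fell by 1.14 (SE 0.34, limma adjusted p = 0.0340). The call was lost with DESeq2 (0.0960) and without KD2 (0.123), KD3 (0.0700), KI2 (0.197) or KI3 (0.199).

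The Stat5a starts themselves did not separate the genotypes. The larger start peak, at 100860102 to 100860924, held 938.4, 818.3 and 810.5 normalized reads in GFI1-KD and 882.7, 934.3 and 895.6 in GFI1-KI, with KD1 the highest of the 6 (log2 fold change -0.08 ± 0.07, limma adjusted p = 0.512). The smaller one, at 100859272 to 100859429, averaged 71.1 ± 8.0 in GFI1-KD and 71.5 ± 10.3 in GFI1-KI (SD, n = 3 each; limma adjusted p = 0.991). Its fold change of 0.00 had no stable sign.

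Stat5b had 17 tested peaks, 11 of them with a fold change below 0. Its called peak, at 100824023 to 100824194, lies inside the gene 1.5 kb upstream of the inner start. It held 40.7, 33.3 and 32.2 normalized reads in GFI1-KD and 51.8, 61.4 and 52.1 in GFI1-KI, without overlap, and fell by 0.63 (SE 0.20, limma adjusted p = 0.0422). This was the least stable call of the 8: it was lost in 8 of 16 alternatives, among them median-of-ratios scaling (0.0531), equal totals (0.0513), DESeq2 (0.208), and leaving out KD2 (0.104), KD3 (0.124), KI2 (0.200) or KI3 (0.111).

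The inner start of Stat5b, whose window with the GFI1 core is printed above, went the other way. Its peak, at 100822377 to 100822799, held 359.5, 350.5 and 380.3 normalized reads in GFI1-KD and 319.8, 295.4 and 293.0 in GFI1-KI. The GFI1-KD values were all above the GFI1-KI values, and the log2 fold change of 0.26 ± 0.10 missed the threshold in limma (adjusted p = 0.0826). It passed with edgeR (0.0243), median-of-ratios scaling (0.0268) and equal totals (0.0227). The outer of the 2 annotated starts, at 100850581, also lies inside the gene body, which reaches to 100859004. The outer start peak, at 100850060 to 100851136, held 531.8, 510.9 and 535.5 normalized reads in GFI1-KD and 567.5, 589.0 and 598.1 in GFI1-KI. Its values were all lower in GFI1-KD, with a log2 fold change of -0.15 ± 0.08 (limma adjusted p = 0.229). The difference between these 2 starts was not tested.

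Stat3, which carries interleukin 6 and granulocyte colony-stimulating factor signals, had the strongest peak of all 9 genes at its start (100939065 to 100940157). This peak held 1840, 1741 and 1837 normalized reads in GFI1-KD and 1949, 1988 and 2126 in GFI1-KI. It did not overlap between genotypes, and its log2 fold change of -0.16 ± 0.05 fell just short of the threshold (limma adjusted p = 0.0515). It passed when only peaks with a mean of at least 50 were tested (0.0396), with a replicate block (0.0337), and without KD1 (0.0421) or KI1 (0.0390), while edgeR gave 0.187 and DESeq2 0.375. The called Stat3 peak lies near the far end of the gene, 47.8 kb from the start, at 100891529 to 100892032. It held 177.6, 111.1 and 164.1 normalized reads in GFI1-KD and 199.3, 234.0 and 208.4 in GFI1-KI, and fell by 0.53 (SE 0.15, limma adjusted p = 0.0264). KD2 was the lowest of the 6, and without it the adjusted p was 0.142; the call was also lost without KI2 (0.141) or KI3 (0.0760) and with DESeq2 (0.0540). Of the 13 tested Stat3 peaks 10 had a fold change below 0, with a median of -0.16.

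**Figure D3:**
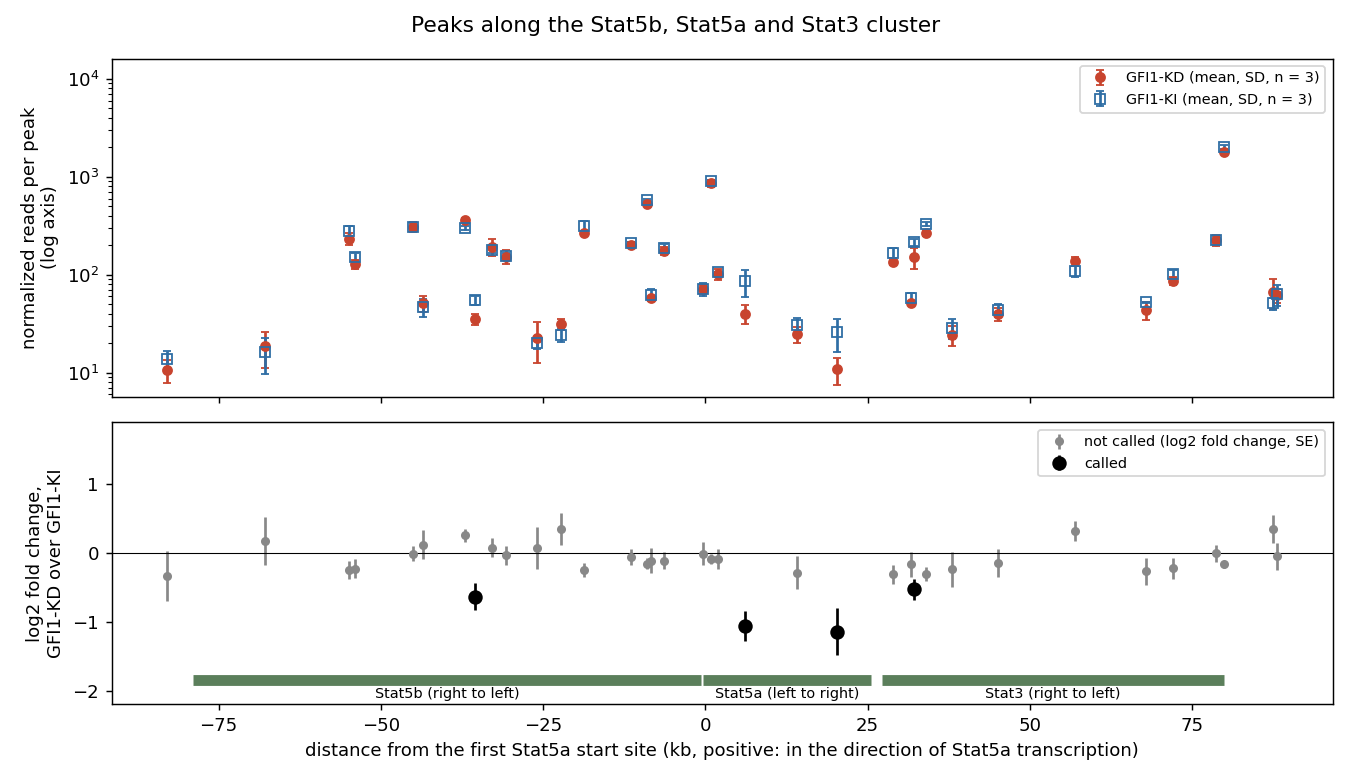
Normalized reads per peak (upper panel, log axis, mean and SD of 3 libraries per genotype) and log2 fold change with its SE (lower panel) for the tested peaks of Stat5b, Stat5a and Stat3, against distance in kb from the first Stat5a start. The 4 called peaks, with fold changes from -1.14 to -0.53, all lie below 0 and away from the 3 genes' tallest peaks.

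Stat2, the interferon factor that works with IRF9, had 3 tested peaks on chromosome 10, and limma, edgeR and DESeq2 called 0 of them, with 1 at an unadjusted p under 0.05. That one is the start peak, at 128270188 to 128270928, which covers the window printed above and also lies in Apof. It held 657.0, 643.0 and 686.3 normalized reads in GFI1-KD and 772.4, 739.8 and 771.0 in GFI1-KI. The genotypes did not overlap, with a log2 fold change of -0.20 ± 0.07 (limma adjusted p = 0.0774, and from 0.0606 to 0.298 over the 17 alternatives).

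Stat4, the interleukin 12 factor of T and natural killer cells, had 19 tested peaks along 120 kb of chromosome 1 and no peak at either annotated start. Limma, edgeR and DESeq2 called 0, while 6 had an unadjusted p under 0.05, 5 of them lower. All GFI1-KD values lay below all GFI1-KI values in 6 peaks (31.6%, against 17.4% of all tested peaks) and above them in 1 (5.26%, against 11.4%), and the median log2 fold change was -0.30. With median-of-ratios scaling 4 lay below (21.1%, against 14% of all) and 3 above (15.8%, against 14.6%). The peak with the smallest p, at 52008491 to 52008739 and 0.375 kb past the second start, held 114.5, 138.2 and 138.6 normalized reads in GFI1-KD and 145.2, 199.0 and 169.2 in GFI1-KI. Its log2 fold change was -0.38 ± 0.14 (limma adjusted p = 0.0864), and without KI1 the adjusted p was 0.0252. The highest Stat4 peak, at 52021994 to 52022729, held 403.6 ± 29.0 normalized reads in GFI1-KD and 396.9 ± 48.2 in GFI1-KI (SD, n = 3 each), with a log2 fold change of 0.03 ± 0.10 and no stable sign.

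Stat6, the interleukin 4 and 13 factor, had 9 tested peaks on chromosome 10, and limma, edgeR and DESeq2 called 0, with 1 at an unadjusted p under 0.05. Fold changes were balanced, with 5 below and 4 above 0 and a median of -0.01 (with median-of-ratios scaling 3 were below 0 and the median was 0.04). The smallest p belonged to a peak 8.2 kb outside the gene, at 127634552 to 127634739, with 67.4, 37.0 and 39.9 normalized reads in GFI1-KD and 30.4, 39.4 and 24.2 in GFI1-KI. KI2 lay inside the GFI1-KD range there, and the log2 fold change was 0.58 ± 0.24 (limma adjusted p = 0.134). The start peak held 651.6, 594.9 and 645.3 normalized reads in GFI1-KD and 698.1, 724.9 and 637.4 in GFI1-KI, with overlap (log2 fold change -0.12 ± 0.08, limma adjusted p = 0.348).

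**Figure D4:**
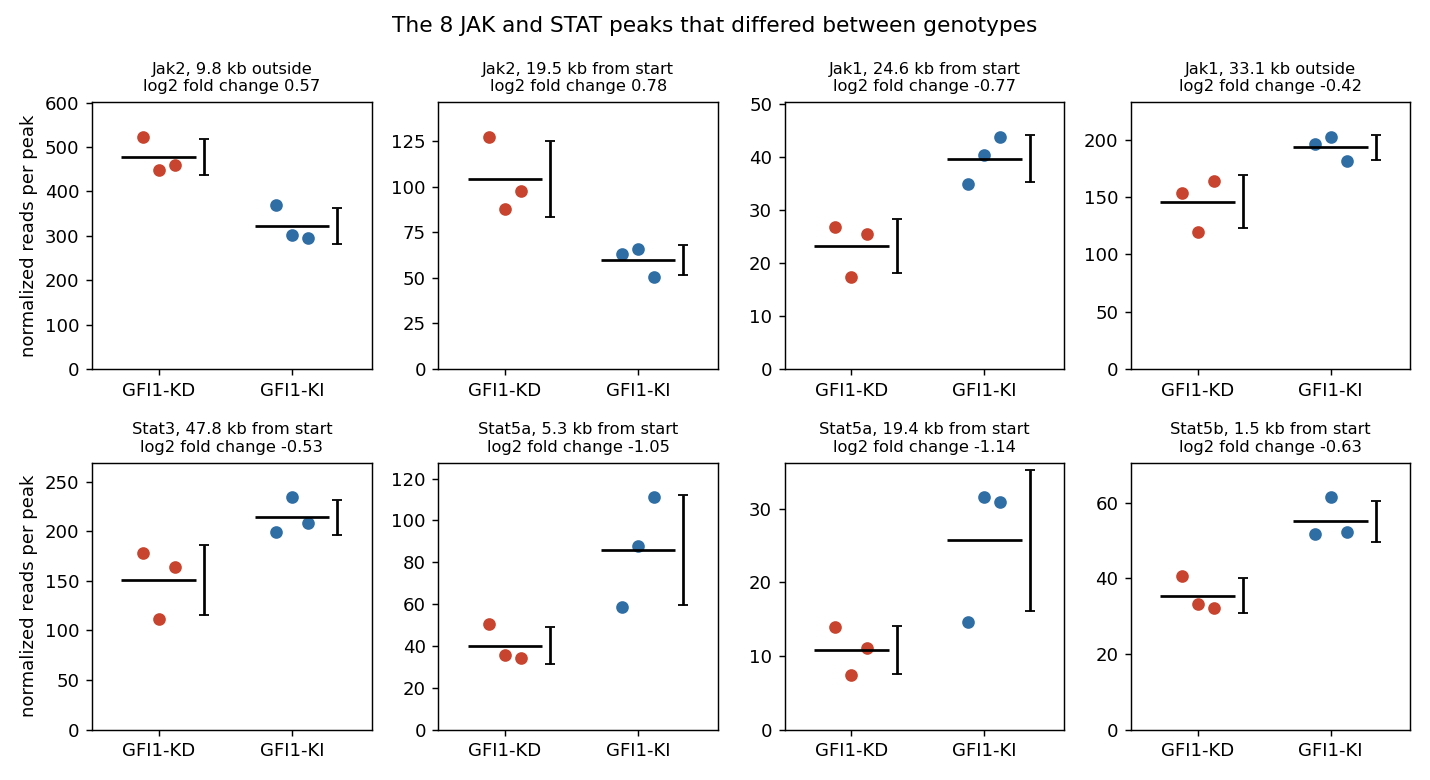
Normalized reads of each library in the 8 called peaks (points), with the mean (line) and SD (bar) of 3 libraries per genotype; each panel starts at 0. The GFI1-KD points lie above the GFI1-KI points in both Jak2 panels and below them in the other 6, and in the Stat5a peak 19.4 kb from the start 1 GFI1-KI library is close to the GFI1-KD values.

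Across the start peaks, 10 in 8 of the genes, the difference was small and mostly of one sign. The log2 fold change was below 0 in 9 of 10, against 76.7% of all 13577 gene-start peaks, and the median was -0.14, against -0.12. The only one above 0 was the inner start of Stat5b. All GFI1-KD values lay below all GFI1-KI values in 5 of 10 (34.3% of all gene-start peaks). Limma called 0 of the 10 (12.5% of all gene-start peaks were called). An unadjusted p under 0.05 was reached by 5 (25.5% of all tested peaks). EdgeR called 1 (12.6% of all tested peaks) and DESeq2 0 (7.3% of all peaks to which it gave an adjusted p). For these further counts the shares of gene-start peaks alone were not computed. With median-of-ratios scaling (69.2% of all gene-start peaks), equal totals (69.6%), edgeR or DESeq2, 8 of 10 were below 0. With 10 peaks these shares are coarse, and their difference from those of all gene starts was not tested.

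The peaks of each gene were also summed per library and set per kb of peak, so that genes could be ordered by level. In GFI1-KD the order ran from Stat3, at 634 ± 32.4 normalized reads per kb, through Stat5a (532 ± 49.4), Stat2 (528 ± 18.7), Jak2 (472 ± 36.7), Stat6 (442 ± 34.2), Jak3 (428 ± 34.9) and Stat5b (416 ± 18.3) to Stat4 (313 ± 14.7) and Jak1 (301 ± 15) (SD, n = 3). In GFI1-KI the values were 709 ± 19.4 for Stat3, 601 ± 20.7 for Stat2, 590 ± 29.1 for Stat5a, 459 ± 25.1 for Jak2, 455 ± 24.4 for Stat6, 447 ± 17.4 for Jak3, 435 ± 21.1 for Stat5b, 342 ± 4.06 for Stat4 and 335 ± 6.82 for Jak1. Stat5a and Stat2 lay within 1 SD of each other in both genotypes, as did each neighbouring pair in the run Jak2, Stat6, Jak3 and Stat5b, while Stat3 stood above and Stat4 and Jak1 below the rest. This is an order of openness over all peaks assigned to a gene, not of RNA or protein, and it depends on how many weak peaks a gene has. Jak1 came last with 44 peaks, although its start peak averaged 870 normalized reads, against 353 for that of Jak3.

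Of the 9 sums, Stat3 alone was called, with 17.2% of 17735 genes called in all. Its peaks summed to 3241, 2927 and 3121 normalized reads in GFI1-KD and 3372, 3455 and 3561 in GFI1-KI, without overlap, and the sum fell by 0.16 on the log2 scale (SE 0.06, limma adjusted p = 0.0497). That call was lost with edgeR (0.189), DESeq2 (0.247), median-of-ratios scaling or a chromosome Y term, and without KD2, KD3, KI2 or KI3. The Jak1 sum missed the threshold, with 4503, 4075 and 4322 normalized reads in GFI1-KD against 4881, 4814 and 4689 in GFI1-KI (log2 fold change -0.16 ± 0.06, limma adjusted p = 0.0540). Stat2 gave -0.19 ± 0.07 (0.0642), Stat5a -0.15 ± 0.07 (0.128) and Stat4 -0.13 ± 0.06 (0.126). Jak3, Stat5b and Stat6 lay between -0.07 and -0.04, and with edgeR their signs were positive. Jak2 was the only sum above 0 in limma, at 0.04 ± 0.06 (limma adjusted p = 0.697), a sum that adds its increased peaks to all others. Of all gene sums 72.2% had a fold change below 0, with a median of -0.08. Stat3, Jak1, Stat2 and Stat4 had every GFI1-KD sum below every GFI1-KI sum, as had 32.1% of all genes.

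**Figure D5:**
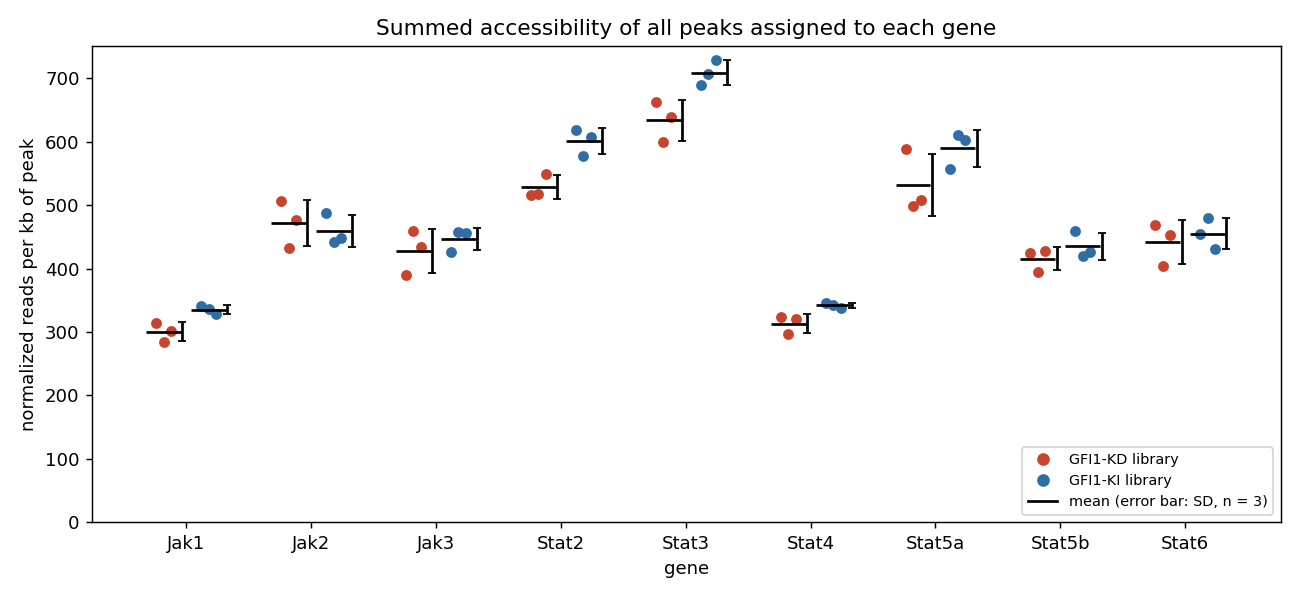
Normalized reads per kb of peak, summed over all peaks of a gene, for each library (points) with the mean (line) and SD (bar) of 3 libraries per genotype; the axis starts at 0. Every GFI1-KD library lies below every GFI1-KI library for Jak1, Stat2, Stat3 and Stat4, and the genotypes overlap for the other genes.

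For each gene the other gene whose summed reads followed it most closely was found over the 6 libraries among 12465 genes. Pearson's r was 0.999 for Jak1 with Tsacc, Jak2 with Mtfr2, Stat2 with Mzf1, Stat3 with Pdlim5 and Stat4 with Lonp2. It was 0.998 for Stat5b with Cog8, 0.990 for Stat5a with Ap3s2, 0.985 for Stat6 with Atp8a1 and 0.979 for Jak3 with Ccl1. Each point is 1 library, so both sums of a pair carry the depth and scaling factor of that library. Each r is also the highest of 12465 over 6 points. The search by itself therefore leads to values near 1, and they show no link between the genes of a pair. The number of genes with such values differed between members: 906 genes passed 0.95 with Stat4, 738 with Jak1 and 625 with Stat3, but 57 with Stat5a and 2 with Jak3.

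Other genes of the pathway were read from the same fit. Among the 679 tested peaks of 53 receptors, inhibitors and STAT target genes, 66 were higher and 31 lower in GFI1-KD, which is 14.3%, against 10.5% of all tested peaks. The median log2 fold change of these peaks was 0.07, against -0.05 for all tested peaks, and with the JAK and STAT peaks the difference was not tested. The receptors had 30 higher and 11 lower of 265 peaks (median 0.10), the inhibitors 21 and 8 of 216 (0.05), and the target genes 15 and 12 of 198 (0.03). EdgeR called 121 of the 679 (17.8%, against 12.6% of all tested peaks). DESeq2 called 67, and 7.3% of all peaks to which it gave an adjusted p. The difference from all peaks depended on the threshold and on the library left out. At an adjusted p under 0.01 it was small, as limma called 29 (4.27%, against 4.04% of all tested peaks). Without KD3 the difference reversed, as limma called 39 (5.74%, against 6.33% of all). It was small without KI3, with 29 called (4.27%, against 4.1%), and without KI2, with 35 (5.15%, against 4.24%). Without KD1 limma called 93 (13.7%, against 9.97%), without KD2 65 (9.57%, against 7.28%) and without KI1 117 (17.2%, against 13%).

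Among the receptors, a peak inside Ifnar2, a chain of the type I interferon receptor, at 91397997 to 91398592 on chromosome 16, held 263.2, 233.3 and 217.3 normalized reads in GFI1-KD and 137.4, 116.6 and 119.3 in GFI1-KI. On the log2 scale it rose by 0.93 ± 0.13 (limma adjusted p = 9.97e-05), with no overlap. Chosen after their values were seen, Il6st (gp130) had 6 of 15 peaks higher and Csf2rb, the common beta chain, 3 of 12, and neither had one lower. In the other direction Il12rb2, chosen in the same way, had 2 of 20 lower and 0 higher. Of all tested peaks 4.99% were higher and 5.48% lower.

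Among the inhibitors, a peak 19.2 kb from Socs6 on chromosome 18 held 206.5, 154.3 and 124.2 normalized reads in GFI1-KD and 57.4, 54.3 and 46.1 in GFI1-KI, and rose by 1.58 ± 0.18 (limma adjusted p = 1.27e-05). The decrease with the smallest p was inside Socs5 on chromosome 17, with 1057, 893.5 and 935.8 normalized reads in GFI1-KD and 1053, 1231 and 1256 in GFI1-KI. KI1 lay inside the GFI1-KD range, and the fall of 0.29 (SE 0.08, limma adjusted p = 0.0159) was lost with DESeq2 (0.0766) and without KD2 (0.0571), KD3 (0.0754), KI2 (0.109) or KI3 (0.129). Socs3, the feedback inhibitor of STAT3 signals and itself a STAT3 target, had 9 of 22 peaks higher and 0 lower, a count noted after its values were seen. Socs5, noted in the same way, had 4 of 21 lower and 0 higher (of all tested peaks 4.99% were higher and 5.48% lower). Among the target genes, a peak 1.4 kb from Fos on chromosome 12 held 585.3, 784.9 and 810.5 normalized reads in GFI1-KD and 523.6, 490.0 and 491.6 in GFI1-KI, and rose by 0.52 ± 0.10 (limma adjusted p = 0.00192). A peak inside Ccnd2, a cyclin gene, on chromosome 6 held 426.9, 367.8 and 440.2 in GFI1-KD and 532.6, 642.5 and 591.3 in GFI1-KI, and fell by 0.52 (SE 0.09, limma adjusted p = 0.00131). Ccnd2 had 6 of 21 peaks lower and 0 higher, a count also noted after its values were seen.

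Markers of the sorted cells and of other lineages were summed the same way. The GMP list (peaks at 8 of 9 genes, 6 of them with a start peak) held 564 to 603 normalized reads per kb in GFI1-KD and 572 to 616 in GFI1-KI, which overlapped, with 3 of 108 peaks higher and 5 lower. Of all tested peaks 4.99% were higher and 5.48% lower. The erythroid list (4 of 5 genes with peaks, and no peak assigned to Hbb-b1) summed to 1630 to 1844 normalized reads in GFI1-KD and 2056 to 2267 in GFI1-KI, with 4 of 23 peaks lower. The megakaryocyte list (5 of 5 genes) summed to 2312 to 2746 in GFI1-KD and 3020 to 3405 in GFI1-KI, with 7 of 22 peaks lower. Some genes, Epor among them, stand in both a marker list and the receptor list. The T and NK cell list (5 of 5 genes) summed to 2387 to 2522 in GFI1-KD and 2120 to 2301 in GFI1-KI, with 1 of 33 peaks called, which was higher. The B cell list (5 of 5 genes, 2 of 47 peaks higher and 3 lower) and the macrophage list (5 of 5 genes, 1 of 43 called, which was higher) overlapped between genotypes. In bulk libraries fewer cells with an open site and less opening per cell cannot be told apart, and the part of these lineage markers in the Jak2 and Stat5a results was not tested. Reads in peaks ran from 16022763 to 19857646 in GFI1-KD and from 19408373 to 27741446 in GFI1-KI. KD1 and KI2 held 0 and 1 reads on chromosome Y against 499 to 865 in the other libraries. The libraries of a genotype were therefore not all repeats of the same animal, and beyond that their origin was not given.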

How the data were processed

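ATAC-seq was done on GMPs of 3 GFI1-KD and 3 GFI1-KI libraries. The deposited values are a coverage signal: normalized counts per consensus peak, in which the authors scaled all reads of a library by the same factor, as the values show. At a tolerance of 0.01 reads, 100% of values were whole reads times that factor. The submitters' processing notes name HOMER, ChIPseeker, DiffBind, MACS2, Picard, SAMtools, BWA, Trim Galore and mm10, without versions. The merging of peaks, any shift of reads for the transposase and the origin of the factors were not given in the sources used here. With 1 shared peak set, a closed site is a low value and not a missing one. Coordinates are those of the table. Chromosomes are coded in alphabetical order: so read, 16.0% of peaks on the 18 codes concerned lay within 1 kb of a gene end, against 2.62% when read as numbers.

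Peaks went to every RefSeq protein-coding gene they overlapped, otherwise to the nearest within 50 kb (21887 genes, GRCm38.p6, the same assembly as mm10). A start peak overlaps the window from 250 bases before to 50 after an annotated start. Exons and introns were not told apart, and the nearest gene need not be the regulated one. Fits used all 6 libraries in limma 3.58.1 under R 4.3.3, without a block, with the variance trend fitted on log2(value + 1). Peaks or gene sums with a mean of at least 10 were tested, which left out 4 of the 135 JAK and STAT peaks. The alternatives were other scalings, pseudocounts, filters, peak assignments and thresholds, robust variance estimation, a replicate block, a chromosome Y term, edgeR 4.0.16 and DESeq2 1.42.0 on recovered reads, and leaving out each library. The fits were tested on simulated data. Same-numbered libraries were checked for shared deviations and were not treated as pairs.

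Named peaks are, per gene, the called peaks, the highest, those at the start and, where none was called, that with the smallest p; per pathway group, the called peak with the smallest p in each direction; and the most correlated gene (mean sum of at least 200, at least 3 tested peaks). Of the pathway peaks named by this rule, 1 is not reported here. The genes, lists and rules were chosen with earlier results of these data known. A floor of 3 reads equals 2.27 to 3.70 normalized reads. Figures were drawn in matplotlib 3.10.9 (Python 3.11.15), from tables made with pandas 2.3.3 and numpy 2.4.6.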

Additional observations from a re-analysis of the deposited data

How the results depend on the processing

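The 8 called JAK and STAT peaks became 3 with DESeq2 (7.3% of all peaks to which it gave an adjusted p). They became 3 at an adjusted p under 0.01 (4.04% of all tested peaks). With 1 library left out they became 3 to 14 (4.1 to 13% of all). The 2 higher peaks became 4 with median-of-ratios scaling (6.83% of all tested peaks), equal totals (6.92%) or edgeR (7.36%). They became 1 with gene bodies only, and 2 to 3 with 1 library left out (2.11 to 7% of all). The 6 lower peaks became 1 with DESeq2 (2.44% of all peaks to which it gave an adjusted p) or at an adjusted p under 0.01. With 1 library left out they became 1 to 12 (1.72 to 5.96% of all). The 1 called gene sum, lower in GFI1-KD, became 0 with median-of-ratios scaling (16% of all gene sums), the chromosome Y term (17.7%), edgeR (18.4%) and DESeq2 (14.6%). It became 2 with robust variance estimation (18.1%), gene bodies only (18%) and a limit of 10 kb (17.9%). With 1 library left out it became 0 to 3 (7.83 to 20.9%). The 97 called pathway peaks became 44 with gene bodies only and 29 at an adjusted p under 0.01 (4.04% of all tested peaks). With 1 library left out they became 29 to 117 (4.1 to 13% of all). Of these the 66 higher became 23 with gene bodies only, 41 within 10 kb and 24 at an adjusted p under 0.01 (23 to 85 with 1 library left out). The 31 lower became 20 at a mean of at least 50, 9 with DESeq2 and 5 at an adjusted p under 0.01 (5 to 40 with 1 library left out). Gene bodies only and the 10 kb limit assign fewer peaks by construction, and a left-out library leaves fewer samples. A mean of at least 50 tests fewer peaks, 79435 in all. An adjusted p under 0.01 is a stricter cut of the same fit, so it can only call fewer. Otherwise the cause was not tested.

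The sign of 2 uncalled peaks reversed. The smaller Stat5a start peak gave 0.04 with median-of-ratios scaling (0.041) and equal totals (0.039), 0.022 with edgeR and 0.031 with DESeq2, and -0.10 to 0.10 with 1 library left out. The highest Stat4 peak ran from -0.038 to 0.12 with 1 library left out. Over the named peaks, 412 alternative values kept direction and call, 33 lost the call and 15 gained it.

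Replicate numbers are shared by the genotypes, and the labels do not say whether they pair libraries. Deviations of same-numbered libraries correlated at -0.02, -0.04 and 0.06, and those of differently numbered ones at -0.06 to 0.09. With 3 libraries per genotype these values cannot decide whether the numbers pair them. With a replicate block 10 JAK and STAT peaks were called, 2 higher and 8 lower. Of all tested peaks it called 11.1%, 5.32% higher and 5.77% lower. The block also called 2 of the 9 gene sums (22.6% of all gene sums) and 104 pathway peaks.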
